A study of Mus musculus with 31 samples.

Results

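The genes described here make up the MEK5-ERK5-MEF2 pathway as 7 genes chosen by symbol: the upstream kinases Map3k2 and Map3k3, the dual-specificity kinase Map2k5 (MEK5), its substrate kinase Mapk7 (ERK5) and the transcription factors Mef2a, Mef2c and Mef2d. They are 7 of the 48709 genes counted in each mouse, and all 7 passed the filter on low counts that kept 17428 genes. The set was drawn up around a lower level of Map2k5 in transgenic mice, so every genotype difference of a member, in both lines or within 1 line, is given as a description without a test. Differences between lines, between sexes and between the genotype effects of the lines, and the covariation left once genotype was removed, were not used in the choice and were tested.

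RNA of the basolateral amygdala (BLA), the amygdalar nucleus in which fear memories form, was sequenced by QuantSeq 3′ Fwd, which reads the 3′ end of each transcript. Of the 31 mice, 16 were WT (8 of line 1 and 8 of line 3; 8 males and 8 females) and 15 were CYFIP1 OE (7 of line 1 and 8 of line 3; 7 males and 8 females), where CYFIP1 OE mice carry a bacterial artificial chromosome with the human CYFIP1 gene. Line numbers follow the sample labels, and the paper does not use the number of the latter line. All were C57BL/6N, each line descends from a single transgenic founder, and the controls were non-transgenic mice of the same lines. WT mice were 58 to 61 days old and CYFIP1 OE mice 58 to 77 days, and the 4 mice aged 77 days were all CYFIP1 OE of line 1.

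Total counts ran from 5286708 to 8685308 per mouse. The mouse gene Cyfip1 was at 33.5 ± 4.48 CPM (TMM-normalized counts relative to library size; SD, n = 16) in WT and 33.01 ± 3.66 (n = 15) in CYFIP1 OE mice, and these tables list mouse genes, so the human transgene was not checked here. The paper itself reports raised CYFIP1 mRNA (by qPCR) and protein (by western blot) in BLA tissue of both its transgenic lines. All 8 markers of BLA glutamatergic neurons passed the filter, with summed levels from 546.1 to 3983 CPM and Rspo2 at 0 reads in 1 mouse. Markers of striatal projection neurons, which lie beside the BLA, summed to 273.5 to 5704 CPM in WT and 303.3 to 6321 CPM in CYFIP1 OE mice with 9 of 10 markers past the filter, and Drd2 was at 0 reads in 20 mice. A single male CYFIP1 OE mouse of line 3 stood apart from the rest in its correlation with the other libraries (connectivity Z-score -4.74, the next being -1.18). Over all genes, edgeR's quasi-likelihood test called 0 genes for genotype at an adjusted p under 0.05, with 750 at an unadjusted p under 0.05, and DESeq2 called 0 and 814.

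In this pathway MAP3K2 and MAP3K3 (MEKK2 and MEKK3) phosphorylate MEK5, MEK5 phosphorylates ERK5, and ERK5 phosphorylates MEF2 proteins and turns on their transcriptional activity. Neurotrophins acting through Trk receptors are among its known activators in neurons, and MEF2 factors control genes for synapse number and survival. The steps from kinase to kinase are changes in protein phosphorylation, which RNA levels do not measure.

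The stretch of 250 bases before the annotated start of Map2k5 and of Mef2d is shown because these were the members with the widest genotype differences, Map2k5 in both lines and Mef2d in line 3. Sequences are from RefSeq on GRCm38.p6, 5′ to 3′ on the strand of the gene, with the GC box GGGCGG (on either strand) in capitals, at chr9:63377903-63378152 (minus strand) for Map2k5 and chr3:88142122-88142371 (plus strand) for Mef2d.
Map2k5: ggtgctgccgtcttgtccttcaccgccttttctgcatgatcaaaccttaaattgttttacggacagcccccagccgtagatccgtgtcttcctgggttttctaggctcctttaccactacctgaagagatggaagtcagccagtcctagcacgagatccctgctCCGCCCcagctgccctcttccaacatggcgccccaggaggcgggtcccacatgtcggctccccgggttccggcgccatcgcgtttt
Mef2d: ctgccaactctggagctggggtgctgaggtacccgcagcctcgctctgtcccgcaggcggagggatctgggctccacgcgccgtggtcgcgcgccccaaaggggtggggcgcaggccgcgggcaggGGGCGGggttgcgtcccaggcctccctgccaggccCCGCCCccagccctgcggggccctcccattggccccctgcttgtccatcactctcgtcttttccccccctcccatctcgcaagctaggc
The Map2k5 stretch held 1 GC box, beginning 86 bases before the start, and had a GC content of 58.4%. The Mef2d stretch held 2, beginning 124 and 89 bases before the start, and had a GC content of 73.2%, against a median of 52.4% over all 32851 promoters in the table. A GC box lay in 32.74% of these promoters, so its presence does not set the members apart.

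Entries were found for 6 of the 7 members, and Mapk7 also held 2 GC boxes in each of its entries, as did 1 of 3 start sites of Mef2c with 1. The AP-1 motif TGANTCA, present in 6.749% of promoters, was found before 1 start of Mef2c. The cAMP response element TGACGTCA (1.546% of promoters), the MEF2 motif (CTA, then any 4 bases, then TAG; 3.202%), the E-box CACGTG (6.021%) and the EGR motif GCGGGGGCG (2.572%) were searched on both strands and matched none of the member entries. A missing match says only that those letters are not in the window.

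Because 3′ sequencing gives about 1 read per transcript whatever its length, levels were set side by side between genes. How fully the 3′ end of each gene was counted was not checked, so the order below is one of counts. The factors Mef2c and Mef2a were the most abundant members. Mef2c averaged 179.7 CPM over the 31 mice and Mef2a 75.1 CPM, above 96.82% and 90.22% of the tested genes, and these ranks held in 31 of 31 mice. Mef2d (19.4 CPM) and Map3k2 (19.1 CPM) could not be ordered, with Mef2d the higher in 17 of 31 mice. Map3k3 (8.86 CPM) exceeded Map2k5 (7.24 CPM) in 19 mice, a split that leaves these neighbours within their spread, and Map2k5 exceeded Mapk7 (4.01 CPM) in 26. Mapk7 had the lowest mean of the members.

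**Figure D1:**
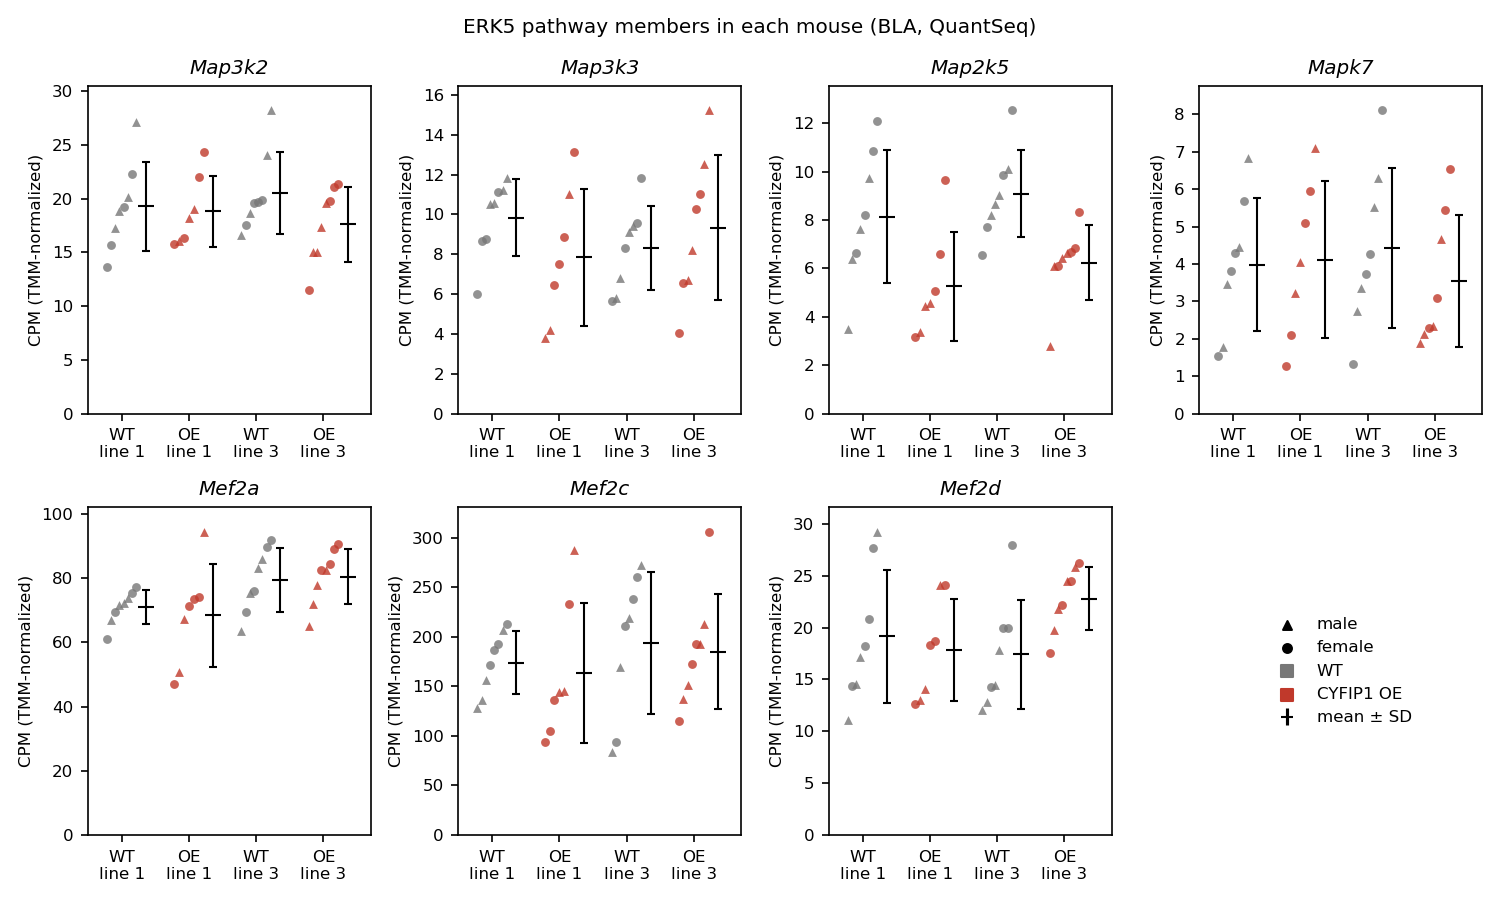
Normalized level of each member in every mouse, in CPM, by genotype and line (grey, WT; red, CYFIP1 OE, written OE; triangles, males; circles, females; black, mean ± SD). Map2k5 was at or below 8.35 CPM in all 8 CYFIP1 OE mice of line 3, while the 2 genotypes overlapped for every member.

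Map2k5, the only kinase known to activate ERK5 directly, lies on chromosome 9 (63163768 to 63377902, minus strand, GRCm38) and overlaps no other annotated gene. In WT mice it ranged from 3.48 to 12.5 CPM with a median of 8.45, and in CYFIP1 OE mice from 2.80 to 9.67 with a median of 6.10. The WT mean was 8.61 ± 2.30 CPM (n = 16) and the CYFIP1 OE mean 5.79 ± 1.91 CPM (n = 15), a change of -32.8%, and 14 of the 15 transgenic mice fell under the former. The groups overlapped, with 3 CYFIP1 OE mice below the lowest WT mouse and 6 WT mice above the highest CYFIP1 OE mouse. Of all genes, 0.975% had as large a share of transgenic mice under their WT mean. The fitted log2 difference was -0.60 (SE 0.16).

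The difference was below 0 in each line. In line 1, WT mice ran from 3.48 to 12.1 CPM (median 7.93) and CYFIP1 OE mice from 3.16 to 9.67 (median 4.56), with 6 of 7 below the WT mean, which 13.1% of genes matched. The log2 difference there was -0.65 (SE 0.23). In line 1 a mouse-name prefix covers both genotypes for only 1 WT and 1 CYFIP1 OE mouse. Genotype and name prefix therefore cannot be told apart in the rest of that line. In line 3, WT mice ran from 6.57 to 12.5 CPM (median 8.85) and CYFIP1 OE mice from 2.80 to 8.35 (median 6.53), with 8 of 8 below the WT mean, which 3.21% of genes matched. The log2 difference was -0.56 (SE 0.23). The genotype-by-line interaction, which tests the difference between lines itself, was 0.09 on the log2 scale (SE 0.32, with an unadjusted p of 0.777 and an adjusted p of 0.969 in edgeR). Under other processing it ran from 0.06 to 0.31. The log2 difference then ran from -0.86 to -0.64 in line 1 and from -0.60 to -0.45 in line 3. With this error, an equal size in both lines is not shown.

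Levels of Map2k5 within smaller sets of mice are a description only, since these are the same mice on which the choice of genes rested. Males were at 7.91 ± 2.14 CPM in WT (n = 8) and 4.90 ± 1.52 in CYFIP1 OE (n = 7), and females at 9.31 ± 2.37 (n = 8) and 6.56 ± 1.97 (n = 8). Mouse names begin with a shared prefix in some of the mice, and 5 such prefixes cover both genotypes. The CYFIP1 OE mean was lower under each of them, though several of these means rest on 1 mouse. In the widest, 1 WT female at 9.87 CPM stood against 2 CYFIP1 OE males with a mean of 4.61 CPM. Sex and genotype are not separable there, and 1 of these males is the distant mouse at 2.80 CPM described below. In the narrowest, 2 WT mice averaged 7.13 CPM and 4 CYFIP1 OE mice 6.81 CPM. With the name prefix as a block, over the 18 mice whose prefix covers both genotypes (9 WT and 9 CYFIP1 OE), the log2 difference was -0.43 (SE 0.23). These were every mouse of line 3 and, of line 1, only 1 WT and 1 CYFIP1 OE mouse, so the blocked fit says little of line 1. The CYFIP1 OE mice of line 1 aged 77 days averaged 5.995 ± 2.83 CPM (n = 4) and the younger ones 4.29 ± 0.848 (n = 3). Map2k5 rested on 18 to 124 reads per mouse, and counting error alone gives a coefficient of variation of about 14.6%, averaged over mice of both genotypes. The coefficient observed among WT mice alone was 26.7%. In bulk tissue, fewer cells of a type and less RNA per cell cannot be told apart.

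The kinases on either side of Map2k5 were nearer to equal between the genotypes. Map3k2 (chromosome 18, 32163089 to 32236751, plus strand) ranged from 13.7 to 28.2 CPM (median 19.4) in WT and from 11.5 to 24.4 (median 18.2) in CYFIP1 OE mice, with a log2 difference of -0.13 (SE 0.11). Map3k3 (chromosome 11, 106084613 to 106155446, plus strand) ranged from 5.67 to 11.8 CPM (median 9.28) in WT and from 3.79 to 15.2 (median 8.22) in CYFIP1 OE mice, with a log2 difference of -0.07 (SE 0.18). For Map3k3 the CYFIP1 OE mice lay on both sides of the WT range, 3 below its lowest and 3 above its highest mouse. Within lines its log2 differences had opposite signs, -0.32 (SE 0.26) in line 1 and 0.16 (SE 0.25) in line 3, although the latter was -0.26 with 5 surrogate variables. The interaction of 0.47 (SE 0.36) gave an unadjusted p of 0.199 in edgeR. Map3k3 holds the antisense gene Gm11672, and whether the counting used strand is not given in the sources used here.

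Mapk7, the gene of ERK5 (chromosome 11, 61488812 to 61494406, minus strand), ranged from 1.33 to 8.11 CPM (median 4.04) in WT and from 1.26 to 7.09 (median 3.23) in CYFIP1 OE mice. Its log2 difference was -0.14 (SE 0.26), with 0.05 (SE 0.38) in line 1 and -0.32 (SE 0.37) in line 3. With 9 to 63 reads per mouse it was the member measured with the least depth. Its spread in WT of 45.7% was more than the 20.3% expected from counting, averaged over mice of both genotypes. Its 3′ end also overlaps that of Mfap4 on the opposite strand.

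**Figure D2:**
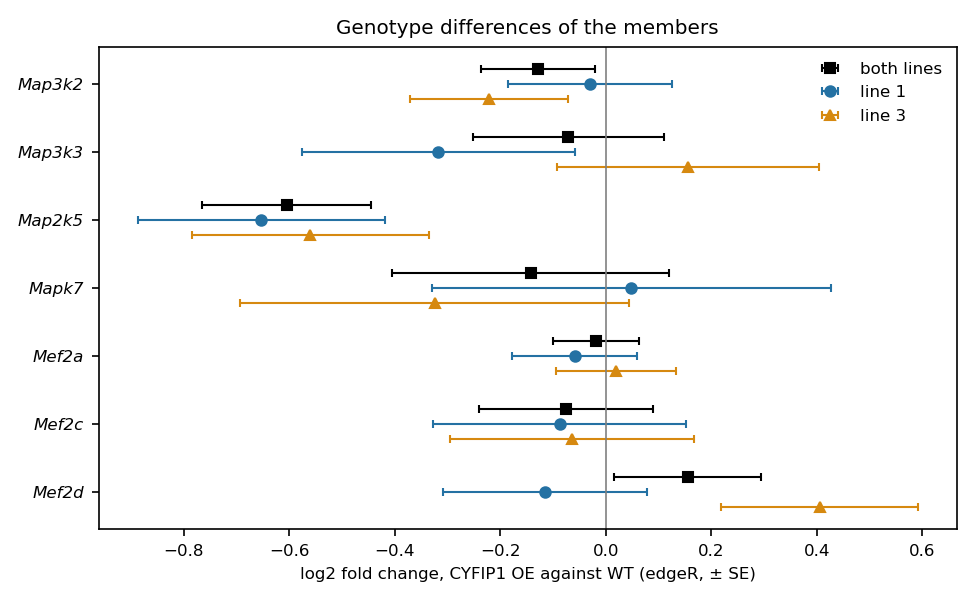
Log2 fold change of each member in CYFIP1 OE against WT mice, with the standard error from edgeR, for both lines together (black squares), line 1 (blue circles) and line 3 (orange triangles). Map2k5 is below 0 in all 3 fits (-0.60, -0.65 and -0.56), and Mef2d is above 0 in line 3 (0.41).

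The MEF2 factors did not share a direction. Mef2a (chromosome 7, 67231163 to 67372858, minus strand) ranged from 61.1 to 92.0 CPM (median 74.7) in WT and from 47.0 to 94.5 (median 74.2) in CYFIP1 OE mice, a log2 difference of -0.02 (SE 0.08) and the smallest standard error of the members. Mef2a overlaps Lysmd4 on the other strand. Mef2c, the most abundant factor (chromosome 13, 83504034 to 83667080, plus strand), ranged from 83.7 to 272.3 CPM (median 189.7) in WT and from 93.6 to 306.2 (median 151.4) in CYFIP1 OE mice, a log2 difference of -0.08 (SE 0.16). Its reads numbered 607 to 2083 per mouse, for which counting gives a coefficient of variation of 2.86%, averaged over mice of both genotypes. Most of its 29.7% spread among WT mice is therefore not counting error.

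Mef2d (chromosome 3, 88142372 to 88172086, plus strand) ranged from 11.1 to 29.2 CPM (median 17.5) in WT and from 12.6 to 26.2 (median 21.8) in CYFIP1 OE mice, with a log2 difference of 0.16 (SE 0.14). In line 3 the CYFIP1 OE mice ran from 17.6 to 26.2 CPM (median 23.4) and the WT mice from 12.1 to 28.0 (median 16.2). All 8 CYFIP1 OE mice of that line were above the WT mean of 17.4 ± 5.25 CPM (n = 8), by 30.7% on average, which 1.58% of all genes matched in count, although the highest value belonged to a WT mouse. By name prefix, the means in line 3 did not share a direction. WT and CYFIP1 OE means were 14.73 and 25.8 CPM (3 and 1 mice), and 13.69 and 26.24 (2 and 1). Under the other prefixes they were 28.0 and 20.75 (1 and 2), and 19.97 and 22.21 (2 and 4). The CYFIP1 OE mouse at 25.8 CPM is the mouse of low connectivity. Name prefix and genotype are thus partly mixed in this difference. In line 1 the means were 19.2 ± 6.44 CPM in WT (n = 8) and 17.9 ± 4.90 CPM in CYFIP1 OE mice (n = 7). The log2 differences were 0.41 (SE 0.19) in line 3 and -0.11 (SE 0.19) in line 1, and with 5 surrogate variables the former was 0.19. The interaction of 0.52 (SE 0.27) had the smallest p of the members, 0.0615 unadjusted and 0.637 adjusted in edgeR, so a difference between lines was not established. The 3′ end of Mef2d overlaps 1700113A16Rik on the other strand.

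Over the members, 6 of 7 log2 differences were below 0 with a median of -0.08 (all genes -0.005). Map2k5 alone had an unadjusted p under 0.05, beside 4.3% of all genes tested, and its adjusted p was not under 0.05. Within lines, members at an unadjusted p under 0.05 were Map2k5 in line 1 (all genes 3.96%) and Map2k5 and Mef2d in line 3 (7.93%). Since the members were chosen on this contrast, these counts carry no weight.

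On the contrasts the choice did not use, no member passed at an adjusted p under 0.05 in edgeR. The interaction gave 0 of 7 members an unadjusted p under 0.05 in edgeR, with 8.1% of all genes under it. Between WT mice of line 3 and line 1, 0 of 7 members passed it (4.41% of all genes), with log2 differences from -0.24 for Map3k3 (SE 0.25) to 0.18 for Map2k5 (SE 0.22). WT mice of line 1 mostly share 1 name prefix and an age, so line, name prefix and age cannot be told apart in that comparison. Between the sexes, Map2k5 was at 7.93 ± 2.54 CPM in females (n = 16) and 6.51 ± 2.39 in males (n = 15). Its log2 difference of 0.34 (SE 0.16) had an unadjusted p of 0.0399 and an adjusted p of 0.97 in edgeR, which does not pass, and 1 of 7 members stands beside 4.62% of all genes. The other 6 members differed by sex from -0.08 (Map3k3) to 0.18 (Mef2d) on the log2 scale, each with an unadjusted p of 0.208 or more. At an adjusted p under 0.05, sex gave 0 members and 0.0631% of all genes.

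To ask whether the members vary together from mouse to mouse, log2 CPM was correlated between each of 21 pairs after sex, line and genotype had been removed. No pair passed at an adjusted permutation p under 0.05 (100000 two-sided resamples), and 10 of 21 coefficients were above 0. The closest pair was Mef2c and Mef2d, where Pearson's r over 31 mice was 0.475 (permutation p = 0.00639, adjusted 0.134). Spearman's rho for this pair was 0.512 (permutation p = 0.00342, adjusted 0.0718). Without the 2 mice farthest from the median, r was 0.358, and it was 0.533 in WT, 0.351 in CYFIP1 OE, 0.6 in line 1 and 0.384 in line 3. With the levels of glutamatergic, striatal and oligodendrocyte markers also removed, r was -0.029 and rho -0.163 (permutation p = 0.878 and 0.378), so the relation did not hold beside these markers. Mef2a and Mef2c followed with r = 0.397 (permutation p = 0.0274, adjusted p = 0.259), but their rho was 0.156 (permutation p = 0.401, adjusted p = 0.682), and r was 0.107 with the marker levels removed (permutation p = 0.569, adjusted p = 0.792). Map2k5 showed coefficients between -0.317 (Mef2a) and 0.318 (Map3k3) with the other members, and -0.113 with Mapk7, the kinase it acts on (permutation p = 0.544, adjusted p = 0.634).

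The members were next set beside summed levels of marker genes in the same mice, as a description without a test, since the dissected punches differed in make-up. Mef2a varied with the immediate early genes Fos, Fosb, Junb, Egr1 and Npas4, which neurons switch on when active. Their r was 0.725 and their rho 0.666 over 31 mice, with r = 0.614 in WT, 0.763 in CYFIP1 OE, 0.832 in line 1 and 0.758 in line 3. It was 0.798 without the mouse of low connectivity and 0.704 without the 2 mice farthest from the median. The summed level ranged from 174.1 to 382.8 CPM in WT and from 73.6 to 421.5 CPM in CYFIP1 OE mice, with Egr1 the main contributor at a mean of 242.0 CPM. Mef2a also went with astrocyte markers (r = 0.618) and, less, with striatal markers (r = 0.46), and the part of tissue make-up in these relations was not tested.

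**Figure D3:**
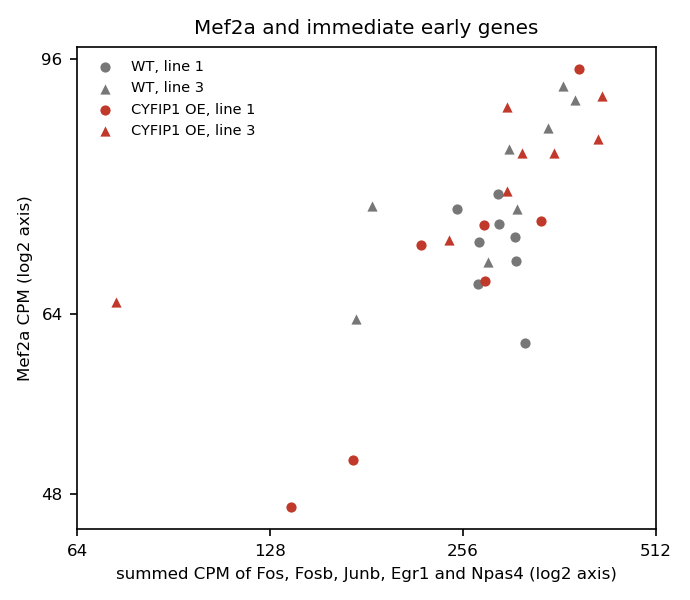
Mef2a level against the summed level of 5 immediate early genes in each mouse (both in CPM on log2 axes; grey, WT; red, CYFIP1 OE; circles, line 1; triangles, line 3), with no covariate removed. The mouse farthest to the left is at 73.6 CPM of immediate early genes and 65.2 CPM of Mef2a, and is the mouse of low connectivity. The highest Mef2a level, 94.5 CPM, lies to the right.

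Mef2c, known in the amygdala and cortex as a factor of excitatory neurons, varied with BLA glutamatergic markers (r = 0.532), with r = 0.842 in line 1, 0.323 in line 3, 0.188 in WT and 0.77 in CYFIP1 OE mice. Camk2a was the main contributor to these summed markers, at a mean of 748.3 CPM. In WT mice r was higher for Mef2c with striatal markers (0.625) and immediate early genes (0.656), for which CYFIP1 OE mice gave -0.31 and 0.196. The coefficient of Mef2c with each of these lists thus had another value in each genotype, and whether the genotypes differ in it was not tested. The coefficients of Mef2c with markers of oligodendrocytes (r = -0.578, WT -0.392, CYFIP1 OE -0.776) and their precursors (r = -0.618, WT -0.608, CYFIP1 OE -0.648) were negative. Mef2d also had a negative coefficient with oligodendrocyte precursor markers (r = -0.549, WT -0.691, CYFIP1 OE -0.297). Oligodendrocyte markers summed to 1355 to 8386 CPM in WT (median 3317) and 1061 to 4844 CPM in CYFIP1 OE mice (median 2350).

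For Map2k5 the coefficient farthest from 0 was with astrocyte markers, at -0.568 (line 1 -0.774, line 3 -0.204, WT -0.393, CYFIP1 OE -0.734). It was -0.422 without the 2 mice farthest from the median. All 6 astrocyte markers passed the filter, and their summed level covered a like range in both genotypes, 1625 to 2179 CPM in WT and 1581 to 2185 CPM in CYFIP1 OE mice. Most of this sum was Slc1a2, at a mean of 1567 CPM, so the coefficient mainly reflects that gene. The coefficients of Map2k5 with glutamatergic markers (-0.021), striatal markers (-0.14) and oligodendrocyte markers (0.003) were near 0.

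**Figure D4:**
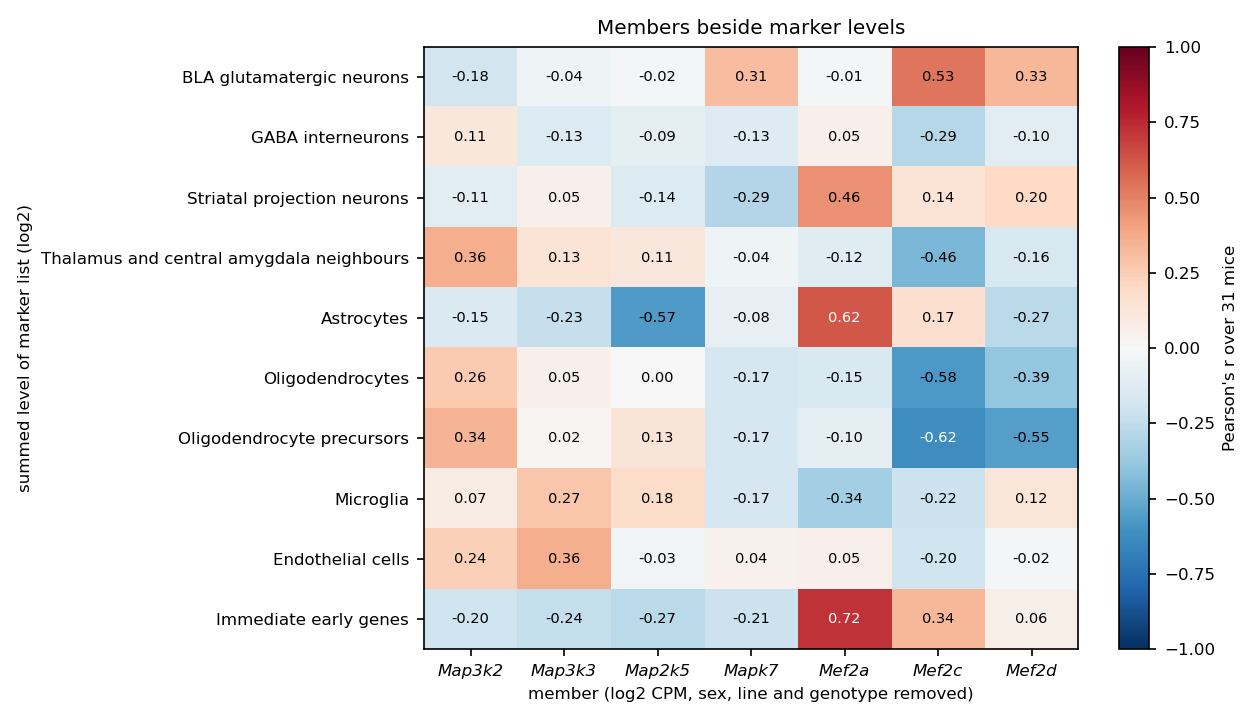
Pearson's r over 31 mice between each member (columns) and the summed level of each marker list (rows) after sex, line and genotype were removed, from -1 (blue) to 1 (red). The strongest cell is Mef2a with immediate early genes (0.725), and Map2k5 is near 0 with glutamatergic, striatal and oligodendrocyte markers.

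Among 8429 genes with a mean of at least 10 CPM, those with the residual pattern most like Map2k5 were Mvb12a (r = 0.718), Golga2 (0.705), Phc1 (0.679), Polr2e (0.669) and Plekhb2 (0.667), over 31 mice. Golga2 encodes a Golgi matrix protein and Polr2e a subunit of RNA polymerases. Those with the most opposite pattern were Fam69a (-0.692), Rb1cc1 (-0.686), Eloc (-0.626), Abce1 (-0.607) and Pcf11 (-0.604). For Mef2c, over 8428 genes, the highest were Slc39a10 (0.815), Nlk (0.801), Ipcef1 (0.793), Bmp3 (0.788) and Ttc9b (0.753), of which Nlk is an atypical MAP kinase. Among the lowest were Nefh (-0.804), a neurofilament gene, Rplp0 (-0.797), Slc6a11 (-0.796) and Atp1b2 (-0.749), of which Slc6a11 and Atp1b2 are known in astrocytes. The summed astrocyte markers, mostly Slc1a2, did not share this pattern, with r = 0.165 and rho = -0.006 against Mef2c. These are descriptions of the extremes of many coefficients.

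The other kinases of the MAPK cascades gave the member values a background. Of the 6 other MAP2K genes, 0 had an unadjusted p under 0.05 for genotype in edgeR, with log2 differences from -0.19 to 0.27 and a median of -0.04. None lay as low as Map2k5, but Map2k5 was chosen for its low level, so this comparison carries no weight. Of 13 MAPK genes only Mapk6, which encodes the atypical kinase ERK3, had one, at -0.46 (SE 0.17, unadjusted p = 0.0106, adjusted p = 0.999 in edgeR). Of 15 tested MAP3K genes (Map3k8, Map3k15 and Map3k19 failed the filter), 0 had one, and their median was 0.08.

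Of 13 tested genes for upstream signals and partners of ERK5, Gab1, an adaptor known to act upstream of ERK5, was at -0.57 (SE 0.28, unadjusted p = 0.0485, adjusted p = 0.999 in edgeR). Of 8 tested downstream genes and regulators, Klf4, a known transcriptional target of the pathway, was at 0.60 (SE 0.28, unadjusted p = 0.0392) and Hdac9, a class IIa deacetylase that represses MEF2, at 0.31 (SE 0.15, unadjusted p = 0.0398), each with an adjusted p of 0.999 in edgeR. Mef2b failed the filter. Of the neuronal MEF2 targets, Arc, Nr4a1, Bdnf, Homer1 and Pcdh10 each had an unadjusted p of 0.125 or more, and their log2 differences ran from -0.25 (Arc) to 0.20 (Bdnf). No gene of these lists passed at an adjusted p under 0.05, and their shares at an unadjusted p stand beside 4.3% of all genes.

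**Figure D5:**
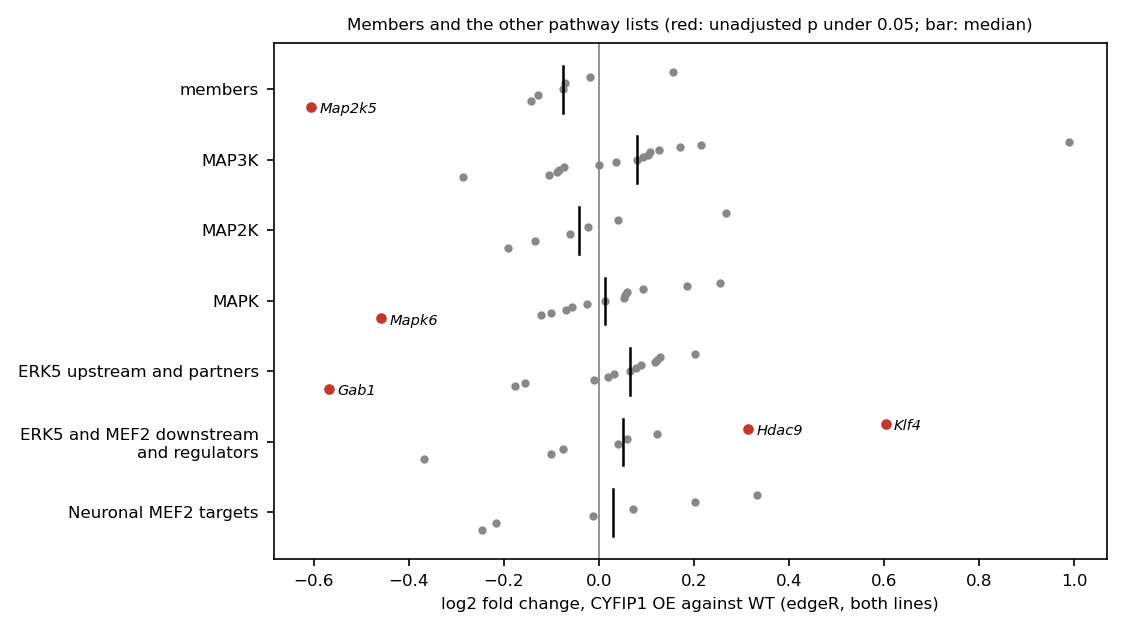
Log2 fold change in CYFIP1 OE against WT mice (edgeR, both lines) for the members and 6 lists of other pathway genes, 1 point per gene, with those at an unadjusted p under 0.05 in red and named, and the list median as a black bar. Medians lie between -0.08 and 0.08, and Map2k5 (-0.60) is the lowest of the members.

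Within lines, some list genes had an unadjusted p under 0.05 for genotype and none an adjusted one in edgeR. In line 1 these were, by log2 difference, Mapk6 (-0.79), Sgk1 (-0.65), Mapk4 (-0.55), Map3k9 (0.50), Map3k4 (0.38) and Ntrk2 (0.20). In line 3 they included Jun (-0.57) and Prkcz (0.34). By the interaction itself, the genotype differences of Mapk4 (0.83, SE 0.28), Map3k9 (-0.91, SE 0.30) and Jun (-1.01, SE 0.36) had unadjusted p-values of 0.00603, 0.00471 and 0.00819 for a difference between the lines, and an adjusted p of 0.535 each in edgeR. Between WT mice of the lines, Jun (0.53) and Cdc37 (0.27), a co-chaperone of HSP90, had unadjusted p-values of 0.0409 and 0.0454, both with an adjusted p of 1 in edgeR. Between the sexes (females minus males) Hdac7 (-0.50), Sgk1 (-0.59) and Map3k10 (0.42) had unadjusted p-values of 0.00262, 0.00634 and 0.0115, and an adjusted p of 0.97 each in edgeR.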

How the data were processed

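BLA tissue from 31 mice was profiled by QuantSeq 3′ Fwd, with each mouse 1 replicate. The authors mapped reads with STAR to GRCm38 with Gencode v11 and quantified them with Salmon (versions not given in the sources used here), and deposited expected counts for each mouse, which are estimated counts without normalization. Symbols and positions were taken from the GENCODE vM21 annotation of GRCm38, which named 48349 of 48709 identifiers. The authors' alignment statistics were not used here.

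Estimated counts were rounded, and a gene was kept (17428 in all) if 20% or more of the mice had 10 or more reads of it. edgeR 4.0.16 in R 4.3.3 was used, with TMM scaling, its quasi-likelihood test, Benjamini-Hochberg adjustment over all genes and the terms sex, line and genotype. Contrasts within lines, between lines in WT mice and the interaction came from 1 fit of line-by-genotype groups and sex. CPM are TMM-normalized, and log2 CPM had a prior count of 2. Total counts of 5286708 to 8685308 set the depth. In simulated counts for 17428 genes with 200 changed by a log2 of 1 for genotype, 193 were recovered with 12 false calls, among genes of at least 5 CPM. At the same size, 156 were recovered for the WT line difference and 185 for sex. For the interaction 187 were recovered, but at a log2 of 2. The simulated mice held no differences by name prefix and smaller changes were not simulated, so recovery of differences as small as those of the members is not known.

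Members and gene lists were chosen with earlier results of these data known. The named genes were the members, list genes with an unadjusted p under 0.05 in a comparison, and the 5 genes with the highest and lowest r with Map2k5 and with Mef2c. Gene names in the text follow the annotation. Alternatives were DESeq2 1.42.0, its size factors, other filters, age, name group, 5 surrogate variables (sva 3.50.0), subsets of mice and single mice left out. Correlations were computed with scipy 1.17.1 and numpy 2.4.6. No set test was run. A few genes that the rule names are not reported here.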

Additional observations from a re-analysis of the deposited data

Results flagged for a closer look

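Of 28 groups of mice (7 members in 4 groups), 2 held a mouse far from the others on the log2 CPM scale, where chance flags about 1 in 20. In CYFIP1 OE mice of line 3, the lowest Map2k5 level was 2.80 CPM (replicate 8), the nearest being 6.09 and the highest 8.35, and the gap was 0.706 of the range. Without that mouse, a choice made after seeing the data, the log2 difference of Map2k5 was -0.55 (SE 0.16) over both lines and -0.45 (SE 0.22) in line 3. In WT mice of line 1, the lowest Map3k3 level was 5.99 CPM (replicate 5), the nearest being 8.65 and the highest 11.8, and the gap was 0.538 of the range. Without that mouse the log2 difference of Map3k3 was -0.10 (SE 0.18) over both lines and -0.41 (SE 0.26) in line 1.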

How the results depend on the processing

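The log2 genotype difference of Map2k5 stayed below 0 in all 15 alternatives, from -0.72 (males alone) to -0.43 (name group as a block), and in females alone it was -0.51. That of Mef2d ran from -0.12 (line 1 alone) to 0.41 (line 3 alone), with 0.33 in males and 0.002 in females. The sign of small genotype differences changed for Mapk7 (0.05 in line 1), Map3k2 (0.05 in females), Map3k3 (0.20 with the name block, 0.15 in line 3), Mef2a (0.02 with age as a covariate, 0.03 without 77-day mice, 0.001 without the mouse of low connectivity, 0.02 in line 3) and Mef2c (0.08 in males). The sex difference of Map2k5 lost its unadjusted p under 0.05 with age as a covariate (an unadjusted p of 0.0503) and without 77-day mice (0.059).

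Other signs turned as follows, with the cause not tested. With 5 surrogate variables the interaction was 0.16 for Mapk7 and -0.10 for Map3k3, the WT line difference -0.13 for Mapk7 and -0.20 for Mef2c, and the sex difference 0.003 for Map3k2, -0.05 for Mef2a and -0.004 for Mef2c. Without 77-day mice the interaction was 0.15 for Mapk7, -0.034 for Mef2a and -0.15 for Mef2c. Without the mouse of low connectivity the interaction was -0.009 for Mef2c, and the sex difference of Map3k3 was 0.006. With age as a covariate the sex difference of Mapk7 was -0.014. Of the genotype differences within lines, 5 surrogate variables turned Mapk7 (-0.25) and Map3k2 (0.01) in line 1 and Map3k3 (-0.26), Mef2a (-0.006) and Mef2c (0.07) in line 3, and took Mef2d in line 3 from 0.41 to 0.19. Leaving out 77-day mice turned Mapk7 (-0.47), Mef2a (0.06) and Mef2c (0.08) in line 1. Mapk7 could not be fitted under a minimum of 10 reads in every mouse, as 1 mouse had 9. Depth limits Mapk7 and Map2k5 most.

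Genes called at an adjusted p under 0.05 numbered 0 by edgeR in line 1, line 3 and the interaction, and 1, 4 and 2 by DESeq2. With 5 surrogate variables edgeR called 3 genes for genotype and 1 in line 1, and with no filter on low counts 2 in line 3 and 2 for the interaction. No paired analysis was possible because the labels carry no replicate numbers shared between groups, and the only blocked fit was the one on the name prefix, in the 18 mice whose prefix covers both genotypes.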
